A study of Mus musculus with 6 samples.

Results

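The genes described here build the contacts between epithelial cells and the filaments anchored to them: claudins and the other tight junction proteins, desmosome proteins, keratins, and Epcam with the epithelial splicing factors Esrp1 and Esrp2. They were chosen by symbol from the deposited array table, as genes named Cldn, Tjp, Dsg, Dsc, Pkp1 to Pkp4 or Krt with a number, plus Ocln, Marveld2, Marveld3, F11r, Cgn, Epcam, Dsp, Jup, Esrp1 and Esrp2. Of 16537 genes measured by a probe set with a single gene symbol, 65 were members: 16 claudins, 7 other tight junction proteins, 7 desmosome proteins, 32 keratins, and the 3 genes Epcam, Esrp1 and Esrp2. The other 49 of 114 protein-coding RefSeq genes that match the names, among them Krt5, Krt14, Krt15, Dsc2 and Dsg3, were not analysed here, and 4 probe sets that carry several symbols were left out.

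The samples were whole mouse lung, 3 labelled Falcor-null and 3 labelled wild type, with 1 array each, all of the strain labelled CD1_C57Bl6_mix. Falcor is a long non-coding RNA gene beside Foxa2, a transcription factor of lung epithelium, and the series title concerns its part in lung epithelium and repair. All 6 lungs, wild type included, had been exposed to naphthalene, which club cells of the airway turn into a toxic product. The labels gave days 31, 32 and 33 after naphthalene for Falcor-null replicates 1, 2 and 3 and days 28, 29 and 30 for the wild-type replicates. These days rise by 1 from each sample to the next over both groups, and whether they are the true days is not known here. Taken as given, day and genotype cannot be told apart. Age, sex and whether each lung came from its own animal were not given, so the p-values reflect how far these samples scatter, and that scatter could be technical.

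In a sheet of epithelium, claudins span the membrane and form the strands of the tight junction, some sealing the gap between cells and others letting ions through. Occludin and the tricellulin and Marveld3 proteins lie in the same strands, and the Tjp proteins tie them to actin. Below them desmosomes, built of desmogleins and desmocollins, plakophilins, plakoglobin and desmoplakin, hold the keratin filaments. Keratins work as pairs of a type I and a type II chain: simple epithelia such as those of the airway and alveolus use Krt8 and Krt18 with Krt7 and Krt19, stratified epithelia and hair use others. In lung, claudin-18 is known for the alveolar epithelium and claudin-5 for the endothelium.

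Each value is a log2 signal as the authors deposited it, and a difference is the mean of the arrays labelled Falcor-null minus the mean of the wild-type arrays on that scale. Medians per array lay between 6.69 and 6.70 on the arrays labelled Falcor-null and between 6.72 and 6.74 on the wild-type arrays. The medians of the groups thus did not overlap, and values with each array centred on its median are given below. Arrays correlated, over probe sets that are themselves not independent, at 0.982 to 0.986 within groups and at 0.970 to 0.976 between them (Pearson). The Falcor probe set (symbol 9030622O22Rik) read 6.82, 6.34 and 6.32 on the arrays labelled Falcor-null, against 4.69, 5.01 and 5.45 on the wild-type arrays. It was thus higher where the gene is labelled null (log2 difference 1.44, limma adjusted p = 0.0423, and 0.0379 to 0.143 with each array left out, under 0.05 only without wild-type replicate 3), and whether it lies in the deleted part is not known here. Every direction below rests on those labels. Foxa2 read 8.19, 8.15 and 8.05 on the arrays labelled Falcor-null, against 7.85, 7.89 and 7.84 on the wild-type arrays (difference 0.27, adjusted p = 0.175), without overlap. As a check of the tissue, the type 2 cell gene Sftpc averaged 13.6 in each group and the club cell gene Scgb1a1 also 13.6 in each, near the top value of the table, 13.9.

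The promoters of 5 members are shown because these genes gave the smallest p-values of the claudins (Cldn1, Cldn5), of the other tight junction proteins (Marveld2, Ocln) and of the keratins (Krt27). Cldn1 and Cldn5 differed in opposite directions, whereas Ocln and Marveld2, neighbours on chromosome 13 with 0 protein-coding genes between them, both read higher on the arrays labelled Falcor-null. Each sequence is RefSeq's on build GRCm38.p6, 250 bases before to 50 after a gene start, 5′ to 3′ along the gene, and for genes with several starts the first listed. Capitals mark the letters CAGGTG (the E-box bound by Snail and Zeb repressors), TGTTTAC (the forkhead core) or TATAAA (the TATA box), on either strand.
Cldn1, chr16:26371790-26372089, minus strand: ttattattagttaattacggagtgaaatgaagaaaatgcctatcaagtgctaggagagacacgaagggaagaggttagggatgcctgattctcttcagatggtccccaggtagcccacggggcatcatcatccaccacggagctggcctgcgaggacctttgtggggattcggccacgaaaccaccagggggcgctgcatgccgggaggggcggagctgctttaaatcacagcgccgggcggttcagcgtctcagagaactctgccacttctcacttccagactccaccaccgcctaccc
Cldn5, chr16:18776597-18776896, plus strand: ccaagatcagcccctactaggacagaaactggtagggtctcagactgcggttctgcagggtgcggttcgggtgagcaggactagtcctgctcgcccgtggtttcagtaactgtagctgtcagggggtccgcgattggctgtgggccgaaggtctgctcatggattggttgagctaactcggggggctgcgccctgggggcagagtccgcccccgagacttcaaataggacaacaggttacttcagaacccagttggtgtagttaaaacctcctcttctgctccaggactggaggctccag
Marveld2, chr13:100616922-100617221, minus strand: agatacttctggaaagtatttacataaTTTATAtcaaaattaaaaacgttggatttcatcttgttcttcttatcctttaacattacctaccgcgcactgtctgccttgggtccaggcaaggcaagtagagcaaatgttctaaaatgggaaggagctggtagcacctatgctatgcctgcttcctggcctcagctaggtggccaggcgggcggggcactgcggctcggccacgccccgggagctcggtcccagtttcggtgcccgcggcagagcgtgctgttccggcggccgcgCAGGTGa
Ocln, chr13:100552669-100552968, minus strand: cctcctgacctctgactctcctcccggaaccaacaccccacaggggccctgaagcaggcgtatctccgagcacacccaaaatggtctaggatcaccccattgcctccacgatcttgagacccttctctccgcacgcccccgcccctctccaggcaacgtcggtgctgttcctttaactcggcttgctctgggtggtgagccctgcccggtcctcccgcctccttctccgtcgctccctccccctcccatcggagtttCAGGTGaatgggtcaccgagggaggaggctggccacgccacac
Krt27, chr11:99351069-99351368, minus strand: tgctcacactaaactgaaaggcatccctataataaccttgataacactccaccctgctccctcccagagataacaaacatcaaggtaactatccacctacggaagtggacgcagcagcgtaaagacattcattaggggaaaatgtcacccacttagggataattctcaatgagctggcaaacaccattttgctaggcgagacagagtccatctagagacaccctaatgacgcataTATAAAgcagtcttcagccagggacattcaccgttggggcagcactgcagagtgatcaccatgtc

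The windows of Cldn1 and Cldn5 held none of the 3 motifs, with GC contents of 56.0% and 58.3%. Those of Marveld2 and Ocln each held 1 CAGGTG, and Marveld2 also 1 TATAAA, read as TTTATA. Krt27 held 1 TATAAA, whose first base lay at position -15 from the start, in a window of 47.0% GC. Windows were listed for 45 of the 65 members, and 18 of these (40.0%) held CAGGTG, against 20.0% of the 27025 windows of all genes. TATAAA stood in 14 of the 45 (31.1%), against 14.2% of all windows. It was split by class, in 13 of 23 keratin windows and 0 of 12 claudin windows. TGTTTAC was in 0 of the 45 and in 3.55% of all windows. These are counts of letters, the motifs can occur without a bound factor, and no test was made on them.

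No junction or keratin gene passed the test between the arrays labelled Falcor-null and wild type. In limma, fitted on all genes with Benjamini-Hochberg adjustment and a threshold of 0.05, 0 of 65 members passed, 0 higher and 0 lower, where 0.556% of all genes (92 of 16537) did. At an unadjusted p of 0.05, 8 members (12.3%) passed, 7 higher and 1 lower, against 13.8% of all genes. The groups did not overlap for 8 members (12.3%), 6 higher and 2 lower, against 19.5% of all genes. Both shares lay below those of all genes, the first by little, and no test was made on them. Of the members, 30 had mean signals among the lowest 30% of genes. There, 3 of 30 members had an unadjusted p under 0.05 and 2 did not overlap, against 589 and 712 of all 4961 genes. Above that level the counts were 5 and 6 of 35 members, against 1686 and 2518 of all 11576 genes. The median absolute difference of the members was 0.08, against 0.10 for all genes, and 52 of 65 members differed by less than 0.2.

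Of the 65 differences, 41 were above 0 and 24 below. That is 63.1%, against 50.8% of all genes, of which no test was made. With each array centred on its median the shares were 75.4% of members and 61.2% of all genes, and after a second quantile normalization 60.0% and 55.4%. The half-width of a member's unadjusted 95% interval had a median of 0.27, and after adjustment a difference of -0.71 (Cldn1) did not pass. The exact permutation test of a single gene cannot go below a p of 0.1 with 3 arrays against 3.

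**Figure D1:**
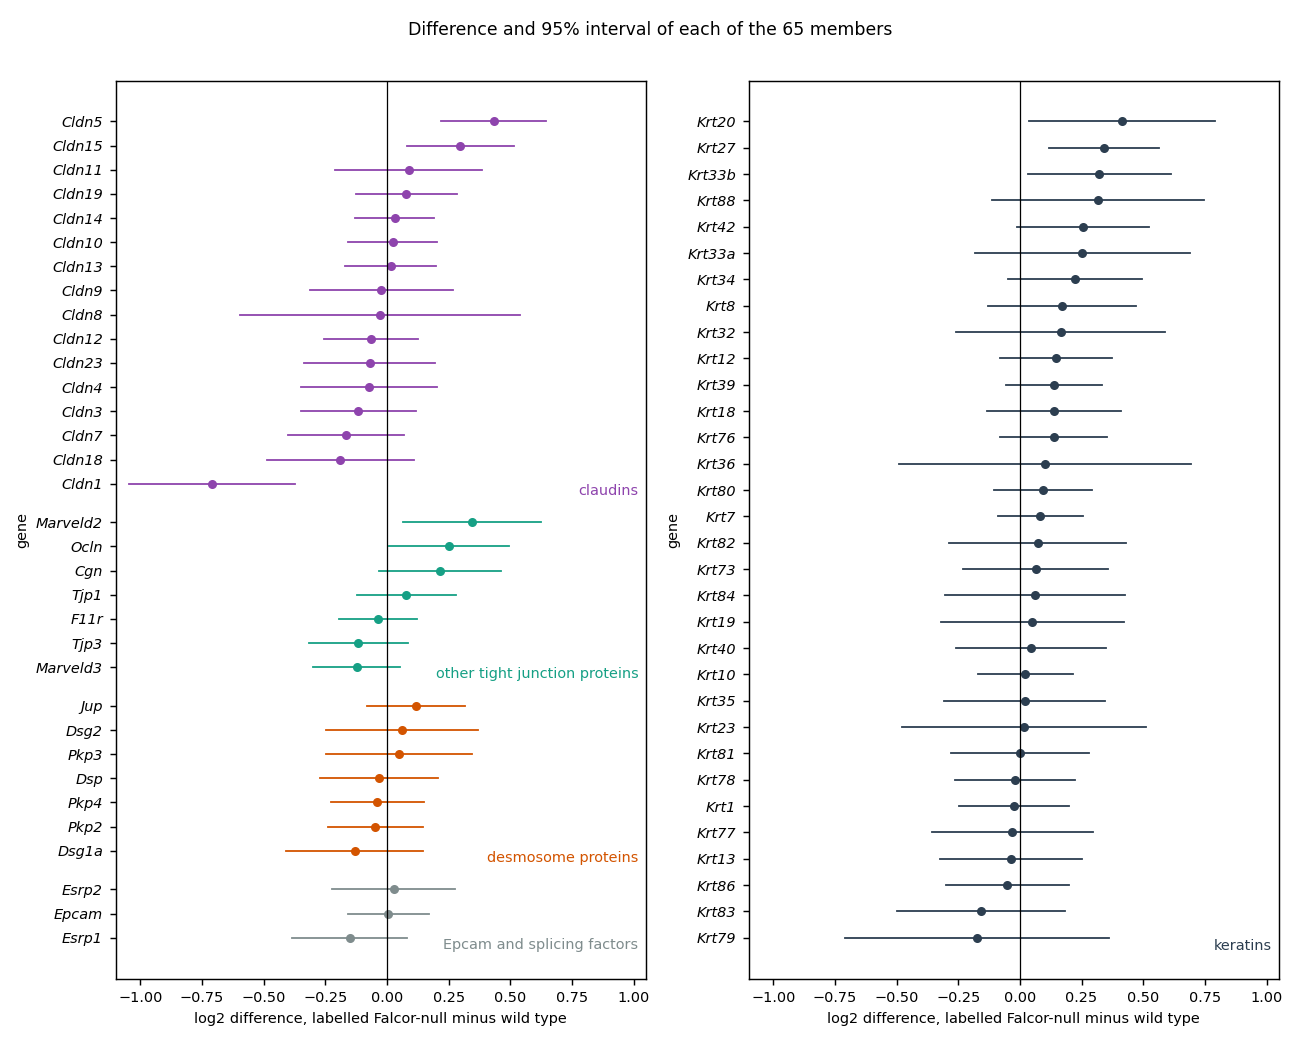
Log2 difference, arrays labelled Falcor-null minus wild type, for each of the 65 members (point) with its unadjusted 95% interval from limma (line), ordered within each class. Cldn1 at -0.71 and Cldn5 at 0.43 lie at the ends of the claudins, while the 7 desmosome genes stay between -0.13 and 0.12.

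The claudins held the lowest and the highest difference of all members. Claudin-1, a sealing claudin of many epithelia, gave Cldn1 signals of 7.48, 7.50 and 7.49 on the arrays labelled Falcor-null, against 8.53, 8.13 and 7.94 on the wild-type arrays (probe set 17329479). The 3 arrays labelled Falcor-null were nearly equal and all lay below the lowest wild-type array, and the wild-type arrays spread more (SD 0.01 against 0.30). The difference was -0.71 (SE 0.14, 95% interval -1.05 to -0.37), 1.63-fold lower, with an adjusted p of 0.0951. It lay between -0.54, without wild-type replicate 1, and -0.84, without wild-type replicate 3. Cldn1 was the only member with an absolute difference above 0.5, a size that 3.83% of all genes reached.

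Claudin-5, the main claudin of endothelial cells, gave Cldn5 signals of 10.10, 10.19 and 10.09 on the arrays labelled Falcor-null, against 9.66, 9.84 and 9.58 on the wild-type arrays (probe set 17323755). All 3 arrays labelled Falcor-null were above all 3 wild-type arrays. The difference was 0.43 (SE 0.09, 95% interval 0.22 to 0.65), 1.35-fold, with an adjusted p of 0.101. Beside it, all 7 measured endothelial markers read higher on the arrays labelled Falcor-null, as they did under both other scalings, with a median difference of 0.16 and 0 passing. Emcn differed by 0.63 (adjusted p = 0.278), the receptor Kdr by 0.25 (adjusted p = 0.455) and Pecam1 by 0.13 (adjusted p = 0.475). Their mean signal was 10.81 to 10.88 on the arrays labelled Falcor-null and 10.59 to 10.67 on the wild-type arrays. Cdh5, the cadherin that defines endothelium, differed by 0.11 (adjusted p = 0.542), and the part of these cells in the Cldn5 difference was not tested. Of all genes, 50.8% were above 0, or 61.2% under centring. Other cell type lists had medians of 0.19 (type 1 cells, mesothelium), 0.25 (fibroblasts), 0.16 (basal cells) and 0.12 (ciliated cells). The rest had medians of -0.76 (goblet cells), -0.70 (leukocytes), -0.12 (skin and oesophagus), -0.06 (club cells) and -0.002 (type 2 cells). In whole lung, a different number of cells of a type and a different amount of RNA per cell cannot be told apart.

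Claudin-15, which forms cation pores in intestine, gave Cldn15 signals of 7.01, 6.83 and 6.89 on the arrays labelled Falcor-null, against 6.65, 6.48 and 6.71 on the wild-type arrays. The groups did not overlap, and the difference of 0.30 (SE 0.09) had an adjusted p of 0.224. With Cldn1 and Cldn5 these were the only claudins whose groups did not overlap.

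The claudins typical of lung epithelium differed less. Cldn18, the alveolar claudin, read 10.68, 10.81 and 10.32 on the arrays labelled Falcor-null, against 10.84, 10.81 and 10.74 on the wild-type arrays (difference -0.19, 95% interval -0.49 to 0.11, adjusted p = 0.566). Replicate 3 of the arrays labelled Falcor-null stood lowest, and replicate 2 lay within the wild-type range. Cldn3, found in alveolar and airway cells, read 8.82, 8.96 and 8.70 on the arrays labelled Falcor-null, against 8.97, 8.81 and 9.04 on the wild-type arrays (difference -0.12, adjusted p = 0.671). Cldn7 read 6.27, 6.23 and 6.21 on the arrays labelled Falcor-null, against 6.45, 6.21 and 6.55 on the wild-type arrays (difference -0.17, adjusted p = 0.523). The groups overlapped for each of these 3 claudins.

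Cldn4, a claudin induced in injured alveolar epithelium, averaged 5.55 ± 0.13 on the arrays labelled Falcor-null and 5.62 ± 0.19 on the wild-type arrays (SD, n = 3 each), a difference of -0.07 (95% interval -0.35 to 0.20). It is a direct neighbour of Cldn3 on chromosome 5. Cldn10, a claudin of club cells, averaged 6.34 ± 0.02 on the arrays labelled Falcor-null and 6.32 ± 0.09 on the wild-type arrays (SD, n = 3 each). Cldn8 had the widest interval of the claudins, -0.60 to 0.54 around a difference of -0.03. Its signals were 6.76, 6.64 and 5.78 on the arrays labelled Falcor-null, against 6.26, 6.50 and 6.51 on the wild-type arrays, so that replicate 3 of the arrays labelled Falcor-null was lowest and the other 2 were highest.

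Another 4 claudins were Cldn11 (difference 0.09), known from myelin and testis, Cldn12 (-0.06), Cldn19 (0.08), known from kidney and nerve, and Cldn23 (-0.07), with adjusted p-values from 0.755 to 0.844. The second, dimmer probe set of Cldn19 differed by -0.06. A further 3 claudins had mean signals from 4.76 to 4.98 and differences from -0.02 to 0.03. Like Cldn4, Cldn19 and Cldn23, these 3 had mean signals among the lowest 30% of genes. Across the 16 claudins 7 were above 0 and 9 below, with 9 above 0 under centring and 5 after the second quantile normalization. Their median difference was -0.03 as deposited, -0.02 after a second quantile normalization and 0.01 with arrays centred on their medians.

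**Figure D2:**
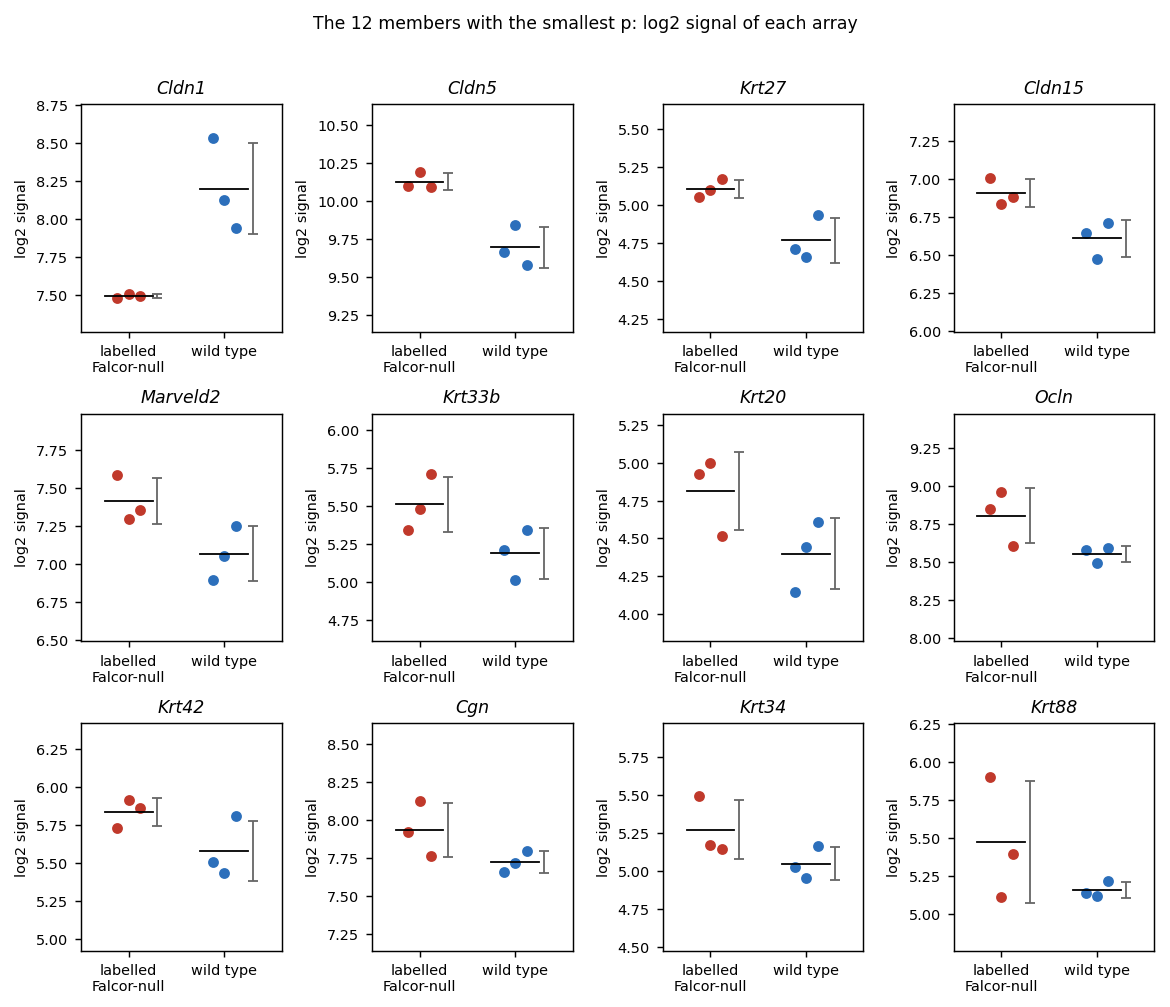
Log2 signal of each array (points) for the 12 members with the smallest p, arrays labelled Falcor-null in red on the left and wild type in blue on the right, with the group mean (black line) and SD (grey bar, n = 3); every panel spans the same 1.5 log2 units. Only Cldn1 reads lower on the arrays labelled Falcor-null, and the groups overlap for Krt20, Krt42, Cgn, Krt34 and Krt88.

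Among the other tight junction proteins, the proteins with the MARVEL fold did not all differ the same way. Marveld2, or tricellulin, which seals the corners where 3 cells meet, read 7.58, 7.30 and 7.35 on the arrays labelled Falcor-null, against 6.89, 7.05 and 7.25 on the wild-type arrays. The lowest array labelled Falcor-null was just above the highest wild-type array, and the difference of 0.34 (SE 0.12, 95% interval 0.06 to 0.63) had an adjusted p of 0.267. Its neighbour Ocln, occludin, read 8.85, 8.96 and 8.60 on the arrays labelled Falcor-null, against 8.58, 8.49 and 8.59 on the wild-type arrays. Replicate 3 of the arrays labelled Falcor-null barely exceeded the wild-type arrays, and the difference of 0.25 (SE 0.10) had an adjusted p of 0.352.

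Marveld3, the third protein of this kind, read 6.64, 6.72 and 6.72 on the arrays labelled Falcor-null, against 6.88, 6.76 and 6.81 on the wild-type arrays. Its groups did not overlap and stood the other way round, with a difference of -0.12 (95% interval -0.30 to 0.05, adjusted p = 0.523). Cgn, cingulin, which links the junction to actomyosin, read 7.92, 8.12 and 7.77 on the arrays labelled Falcor-null, against 7.66, 7.71 and 7.80 on the wild-type arrays, and the groups overlapped (difference 0.21, adjusted p = 0.430).

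The scaffolds and the junctional adhesion molecule differed by 0.12 or less. Tjp1, the scaffold ZO-1, read 10.99, 10.88 and 10.89 on the arrays labelled Falcor-null, against 10.96, 10.83 and 10.74 on the wild-type arrays, with overlap (difference 0.08, 95% interval -0.12 to 0.28). Tjp3, or ZO-3, averaged 7.55 ± 0.11 on the arrays labelled Falcor-null and 7.67 ± 0.06 on the wild-type arrays (difference -0.12). F11r, which encodes JAM-A, averaged 10.18 ± 0.02 on the arrays labelled Falcor-null and 10.21 ± 0.02 on the wild-type arrays (SD, n = 3 each). Its difference of -0.04 had a 95% interval from -0.20 to 0.12, and its sign turned under centring. Of the 7 genes 4 were above 0, 5 under centring.

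Partners of the tight junction gave a similar picture. Of 31 measured genes, which include polarity proteins, adaptors and tricellular receptors, 21 read higher and 10 lower (26 higher under both other scalings), with 0 passing and a median difference of 0.06, against 0.00 for all genes. Ildr2, a receptor of tricellular contacts, had a difference of 0.61 (adjusted p = 0.164), the scaffold Magi3 0.28 (adjusted p = 0.245) and the angiomotin-like Amotl1 0.20 (adjusted p = 0.281). Of 14 adherens junction genes and nectins 9 read higher and 5 lower (11 higher under both other scalings), none passing, with p120 catenin (Ctnnd1) at 0.18 (adjusted p = 0.374), Nectin4 at -0.16 (adjusted p = 0.514) and Nectin3 at 0.16 (adjusted p = 0.523).

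The desmosome genes differed little. All 7 lay between -0.13 and 0.12, the groups overlapped for each, and the smallest adjusted p was 0.591. Jup, plakoglobin, read 9.61, 9.74 and 9.58 on the arrays labelled Falcor-null, against 9.55, 9.43 and 9.59 on the wild-type arrays (difference 0.12, 95% interval -0.08 to 0.31). Dsp, desmoplakin, which ties the plaque to keratin, read 8.14, 8.43 and 8.15 on the arrays labelled Falcor-null, against 8.37, 8.24 and 8.21 on the wild-type arrays (difference -0.03, 95% interval -0.27 to 0.21). The sign for Dsp turned under both other scalings. Of the plakophilins, which support the plaque, Pkp4 read 8.57, 8.72 and 8.63 on the arrays labelled Falcor-null, against 8.75, 8.68 and 8.61 on the wild-type arrays (difference -0.04). Pkp2 differed by -0.05 and Pkp3 by 0.05. Of the 7 genes 3 were above 0 with a median of -0.03, and 4 under both other scalings, where the median turned to 0.01 under centring. The desmoglein of simple epithelia, Dsg2, differed by 0.06 and the skin desmoglein Dsg1a, whose signal of 4.73 and 4.86 in the 2 groups was among the lowest 30%, by -0.13.

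Among 12 measured partners of desmosomes and keratins, 9 read higher and 3 lower with a median of 0.09 and none passing. Trim29, a protein of stratified epithelium that binds keratin, read 6.22, 6.37 and 7.07 on the arrays labelled Falcor-null, against 6.94, 7.46 and 7.51 on the wild-type arrays (difference -0.75, adjusted p = 0.240). Perp, a desmosome protein under p63, differed by -0.32 (adjusted p = 0.449), and the plaque and actin-binding protein Pof1b by 0.26 (adjusted p = 0.270).

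The keratins of simple epithelium read much alike in both groups. Krt8 read 8.65, 9.0 and 8.59 on the arrays labelled Falcor-null, against 8.51, 8.49 and 8.73 on the wild-type arrays (difference 0.17, 95% interval -0.13 to 0.47, adjusted p = 0.611). Its partner and neighbour on chromosome 15, Krt18, read 8.46, 8.59 and 8.26 on the arrays labelled Falcor-null, against 8.32, 8.14 and 8.43 on the wild-type arrays (difference 0.14, adjusted p = 0.657). The direction of Krt18 is uncertain, since its second, dimmer probe set differed by -0.23.

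Krt7 averaged 8.81 ± 0.06 on the arrays labelled Falcor-null and 8.72 ± 0.05 on the wild-type arrays (SD, n = 3 each), a difference of 0.08. Krt19 read 8.39, 8.57 and 7.99 on the arrays labelled Falcor-null, against 8.13, 8.21 and 8.45 on the wild-type arrays (difference 0.05, 95% interval -0.32 to 0.42). Krt80, a keratin of many epithelia, read 9.63, 9.76 and 9.80 on the arrays labelled Falcor-null, against 9.73, 9.61 and 9.56 on the wild-type arrays (difference 0.09). The groups overlapped for all 5 of these keratins, and the largest difference among them was 0.17.

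**Figure D3:**
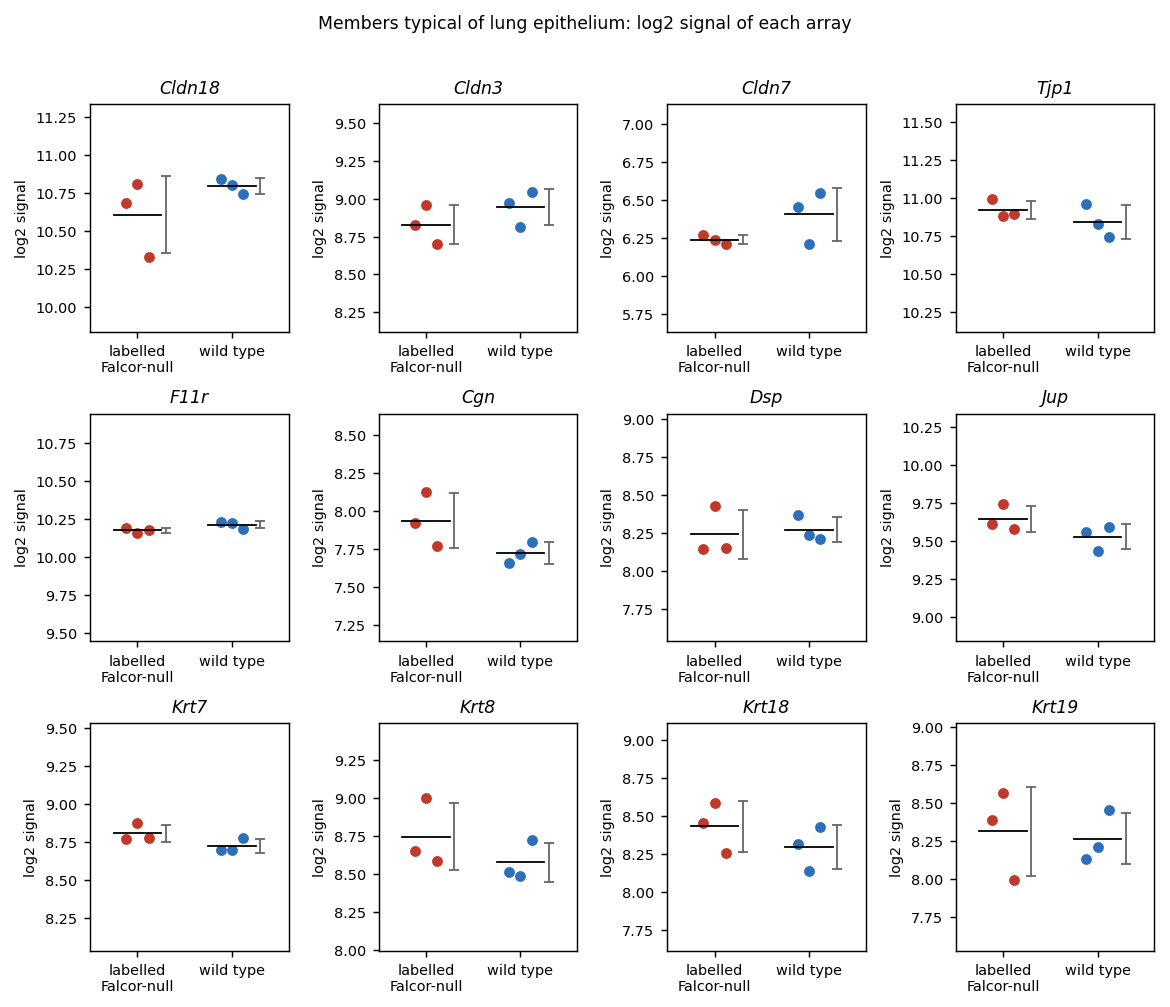
Log2 signal of each array (points) for 12 members typical of lung epithelium, arrays labelled Falcor-null in red on the left and wild type in blue on the right, with the group mean (black line) and SD (grey bar, n = 3); every panel spans 1.5 log2 units. The groups overlap in every panel, and replicate 3 of the arrays labelled Falcor-null is lowest in its group for Cldn18, Cldn3, Cldn7, Cgn, Jup, Krt8, Krt18 and Krt19.

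Replicate 3 of the arrays labelled Falcor-null was the lowest of its group for 16 of the 35 members whose mean signal was above the lowest 30% of genes (45.7%), among them Cldn18, Cldn3, Ocln, Cgn, Krt8, Krt18 and Krt19. Of all 11576 genes above that level, 39.7% (4600) were lowest there. Wild-type replicate 2 was the lowest of its group for 15 of the 35 members and 3280 of those genes. Wild-type replicate 3 was so for 14 members and 4802 genes. The spread of Krt23, a keratin of gland and gut epithelium, came from replicate 1, with 7.60, 6.83 and 6.89 on the arrays labelled Falcor-null, against 6.85, 7.23 and 7.19 on the wild-type arrays. Krt79, a keratin of the hair follicle's upper part, read 7.38, 7.74 and 7.78 on the arrays labelled Falcor-null, against 7.60, 7.48 and 8.34 on the wild-type arrays, where replicate 3 stood highest. Its difference of -0.17 was 0.09 without that array.

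The keratins with the smallest p-values were ones of hair, nail and gut, with low signals. Krt27, of the hair follicle's inner root sheath, read 5.05, 5.10 and 5.17 on the arrays labelled Falcor-null, against 4.71, 4.66 and 4.93 on the wild-type arrays (difference 0.34, SE 0.10, adjusted p = 0.186). The hair cortex keratin Krt33b read 5.34, 5.48 and 5.71 on the arrays labelled Falcor-null, against 5.21, 5.01 and 5.34 on the wild-type arrays, and the lowest of the first nearly met the highest of the second (difference 0.32, adjusted p = 0.316). Krt20, of gut and urothelium, read 4.93, 5.0 and 4.52 on the arrays labelled Falcor-null, against 4.15, 4.44 and 4.61 on the wild-type arrays, and the groups overlapped (difference 0.41, adjusted p = 0.320).

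Krt42 (difference 0.25, adjusted p = 0.388), the hair keratin Krt34 (0.22, adjusted p = 0.449) and Krt88 (0.32, adjusted p = 0.506) followed, each with overlapping groups. The Krt88 difference rested on replicate 1 of the arrays labelled Falcor-null at 5.90, beside 5.11 and 5.40 there and 5.14, 5.11 and 5.21 on the wild-type arrays. The other 19 keratins differed by -0.16 to 0.25, with adjusted p-values of 0.519 or more. Of these 19, 17 had mean signals among the lowest 30% of genes.

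As a class, 25 of 32 keratins read higher and 7 lower on the arrays labelled Falcor-null, with a median difference of 0.08 and 0 passing. The counts above 0 were 29 with arrays centred on their medians and 24 after a second quantile normalization. The 16 keratins on chromosome 11, where most type I genes lie, had 15 above 0 and a median of 0.14. Under centring 16 of them were above 0, and 14 after a second quantile normalization. The 16 on chromosome 15, where the type II genes and Krt18 lie, had 10 above 0 and a median of 0.06. Of these 16, 13 were above 0 under centring and 10 after a second quantile normalization. Genes of low signal were above 0 more often than all genes as deposited and also under centring, where the shares were 67.9% and 61.2%. After a second quantile normalization they were not, with shares of 54.7% and 55.4%. Of the 4961 genes in the lowest 30%, 59.4% were above 0 with a median of 0.04, and 17 of the 23 keratins in that range were, with a median of 0.10 (21 under centring). After a second quantile normalization 16 of these 23 keratins (69.6%) were above 0, with a median of 0.07. Whether a signal at this level is above background is not known, since no detection calls were used, and the part of signal level in the keratin counts was not tested.

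**Figure D4:**
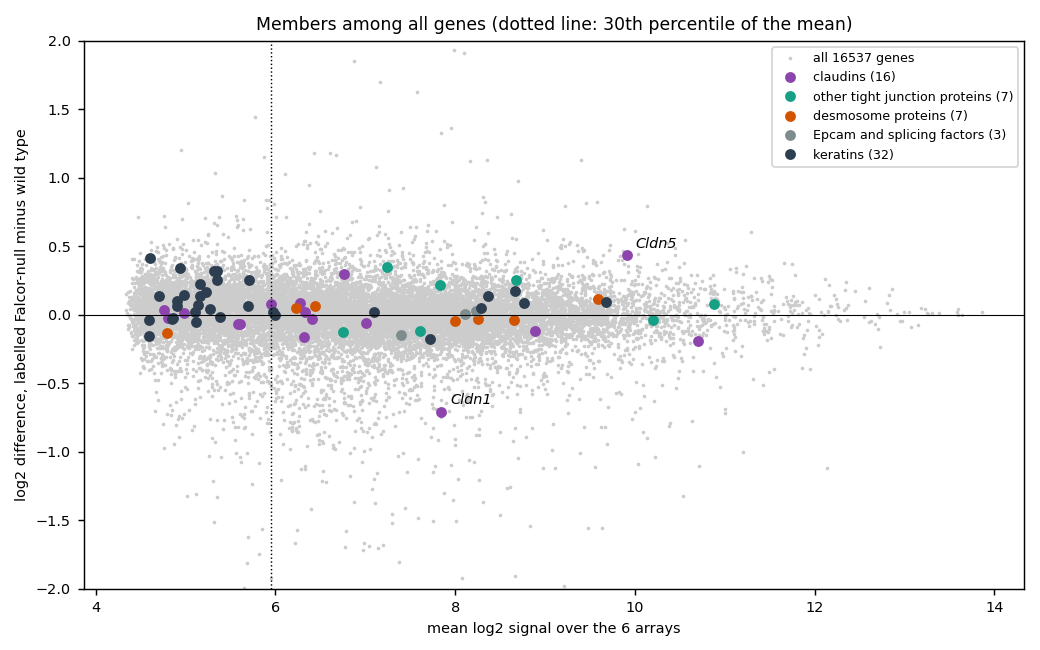
Log2 difference, arrays labelled Falcor-null minus wild type, against the mean log2 signal over the 6 arrays, for all 16537 genes (grey) and the members by class (coloured); the vertical axis is limited to 2 units either way and leaves out 15 genes that are not members. Of the keratins, 23 lie left of the dotted line at 5.95, the 30th percentile of the mean.

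Epcam and the splicing factors did not pass either. Epcam, the adhesion molecule used to sort epithelial cells, read 8.07, 8.15 and 8.12 on the arrays labelled Falcor-null, against 8.09, 8.15 and 8.09 on the wild-type arrays. The groups coincided, with a difference of 0.01 and a 95% interval from -0.16 to 0.17. Esrp2 read 8.40, 8.33 and 8.02 on the arrays labelled Falcor-null, against 8.22, 8.22 and 8.23 on the wild-type arrays (difference 0.03, 95% interval -0.22 to 0.28), with replicate 3 again lowest. Esrp1 read 7.48, 7.22 and 7.25 on the arrays labelled Falcor-null, against 7.52, 7.53 and 7.35 on the wild-type arrays. Its difference of -0.15 had a 95% interval from -0.39 to 0.08 (adjusted p = 0.557).

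Of 20 measured regulators and surface proteins of epithelial identity, 7 read higher and 13 lower (9 higher under centring) with 0 passing and a median of -0.08. Ovol1, a repressor that holds cells epithelial, read 5.11, 4.98 and 5.0 on the arrays labelled Falcor-null, against 5.50, 5.35 and 5.45 on the wild-type arrays (difference -0.40, adjusted p = 0.0880). The RNA-binding protein Rbm47 (-0.34, adjusted p = 0.195) and the serine protease Prss8 (-0.26, adjusted p = 0.217) had groups that did not overlap either, both lower on the arrays labelled Falcor-null. In all, the groups did not overlap for 7 of the 20 genes, against 19.5% of all genes. Of these 7, Klf4 (0.38, adjusted p = 0.252) and Klf5 (0.26, adjusted p = 0.238) were the ones that read higher.

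The cell types that carry these junctions gave the following values beside the members. Type 1 cell markers read higher on the arrays labelled Falcor-null in 9 of 9, with 8 not overlapping, 0 passing and a median of 0.19. Of all genes, 50.8% were above 0 and 19.5% did not overlap in either direction. Their mean signal was 10.65 to 10.81 on the arrays labelled Falcor-null and 10.38 to 10.52 on the wild-type arrays, and the largest difference was 1.13 for Igfbp2 (adjusted p = 0.134). Clic5 differed by 0.22 (adjusted p = 0.260) and Ager by 0.24 (adjusted p = 0.283). Type 2 cell markers had 4 of 9 higher, or 5 under centring, a median of 0.00 and mean signals of 11.92 to 12.05 on the arrays labelled Falcor-null and 11.92 to 12.08 on the wild-type arrays. Etv5 (0.27), Slc34a2 (-0.10) and Abca3 (0.12) had its smallest p-values, with adjusted p-values of 0.496 or more.

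Airway secretory markers differed between lists. Goblet cell markers had 6 of 8 lower, a median of -0.76, and mean signals of 5.59 to 5.73 on the arrays labelled Falcor-null and 5.78 to 6.74 on the wild-type arrays. Wild-type replicates 1 and 2 averaged 6.74 and 6.53, whereas wild-type replicate 3, at 5.78, lay beside the arrays labelled Falcor-null. Without wild-type replicate 3 the median was -1.25, and without wild-type replicate 1 or 2 it was -0.49 or -0.50. The mucus lectin Itln1 fell and was the 1 that passed (difference -1.31, adjusted p = 0.0265), while Agr2 gave -0.84 (adjusted p = 0.207) and Tff2 -1.21 (adjusted p = 0.265). Club cell markers had 5 of 8 lower, a median of -0.06, and mean signals of 10.95 to 11.09 on the arrays labelled Falcor-null and 11.14 to 11.39 on the wild-type arrays, with the antimicrobial Bpifa1 passing as lower (-1.51, adjusted p = 0.0383). With each array left out in turn, Itln1 stayed under 0.05 only without wild-type replicate 1 (adjusted p = 0.0413) or 3 (0.0120), and reached 0.101 at most, while Bpifa1 ran from 0.0554 to 0.131. Foxa3 (0.22) and Spdef (0.01) of the goblet list and Scgb1a1 (0.02), Cyp2f2 (0.05) and Aldh1a1 (0.03) of the club list were above 0, named here because their sign is opposite to that of most of their lists. All but Foxa3 differed by less than their SE (Spdef 0.09, Scgb1a1 0.07, Cyp2f2 0.09, Aldh1a1 0.11). Scgb1a1 also lay near the top value of the table.

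Scgb3a1 (-0.51, adjusted p = 0.454) and Gsta3 (-0.11, adjusted p = 0.778) did not pass. The part of these cells in the Cldn1 difference was not tested. Basal cell markers had 5 of 6 higher with a median of 0.16 and 0 passing, and their defining factor Trp63 was near the low end, at 4.69 on the arrays labelled Falcor-null and 4.50 on the wild-type arrays (adjusted p = 0.519). Ngfr, Sostdc1, Dapl1 and Aqp3 also averaged under 5.95 in each group, the 30th percentile of the mean. Of all genes in that range, 59.4% were above 0. The remaining marker, Icam1, averaged 10.73 on the arrays labelled Falcor-null and 10.60 on the wild-type arrays. Sostdc1 (0.21, adjusted p = 0.281) and Ngfr (0.26, adjusted p = 0.575) did not pass. Ciliated cell markers had 5 of 8 higher, or 6 under both other scalings, with a median of 0.12 and 0 passing, with Mcidas at 0.36 (adjusted p = 0.163), Cdhr3 at -0.42 (adjusted p = 0.274) and Tuba1a at 0.15 (adjusted p = 0.573).

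Markers of skin and oesophagus, with 8 of 12 listed genes measured, had 3 of 8 higher (4 under centring, 2 after the second quantile normalization) and a median of -0.12. Their mean signal was 5.42 to 5.59 on the arrays labelled Falcor-null and 5.61 to 5.73 on the wild-type arrays, with Ivl, an envelope protein, at 4.85 on the arrays labelled Falcor-null and 5.18 on the wild-type arrays. Calml3 (-0.36, adjusted p = 0.397), Sprr1a (-0.44, adjusted p = 0.397) and Ivl (-0.33, adjusted p = 0.519) had its smallest p-values. All 8 but Dmkn averaged under 5.95 in each group, the 30th percentile of the mean. Dmkn averaged 8.03 on the arrays labelled Falcor-null and 8.24 on the wild-type arrays. The part of such tissue in the keratin counts was not tested. Mesothelial markers had 6 of 7 higher, or 7 under both other scalings, with a median of 0.19 and 0 passing, led by Wt1 (0.22), Msln (0.27) and Upk3b (0.20), and fibroblast markers 5 of 6 higher, or 6 under centring, with a median of 0.25 and 0 passing, led by Col3a1 (0.43), Pdgfra (0.27) and Tcf21 (0.31).

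Leukocyte markers had 8 of 10 lower, a median of -0.70 and 4 passing, all lower. These were Jchain (-2.78, adjusted p = 0.000311), Cd3e (-1.20), Cd4 (-1.23) and Cd79a (-0.75), with adjusted p-values of the last 3 up to 0.0282. With an array left out, Jchain passed every time (up to 0.00590), whereas Cd3e reached 0.0529 and Cd4 0.0687, both without Falcor-null replicate 2, Cd4 also missed 0.05 without wild-type replicate 2 (0.0546), and Cd79a passed only without wild-type replicate 3. Of all genes, 0.556% passed, and 0.46% passed as lower. Ptprc (-0.43), Ms4a1 (-0.65), Marco (-0.48) and Chil3 (-1.12) also read lower without passing. Lyz1 (0.19) and Csf1r (0.08), both genes of myeloid cells, read higher. The mean signal of the 10 markers was 8.37 to 8.56 on the arrays labelled Falcor-null and 9.23 to 9.34 on the wild-type arrays.

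**Figure D5:**
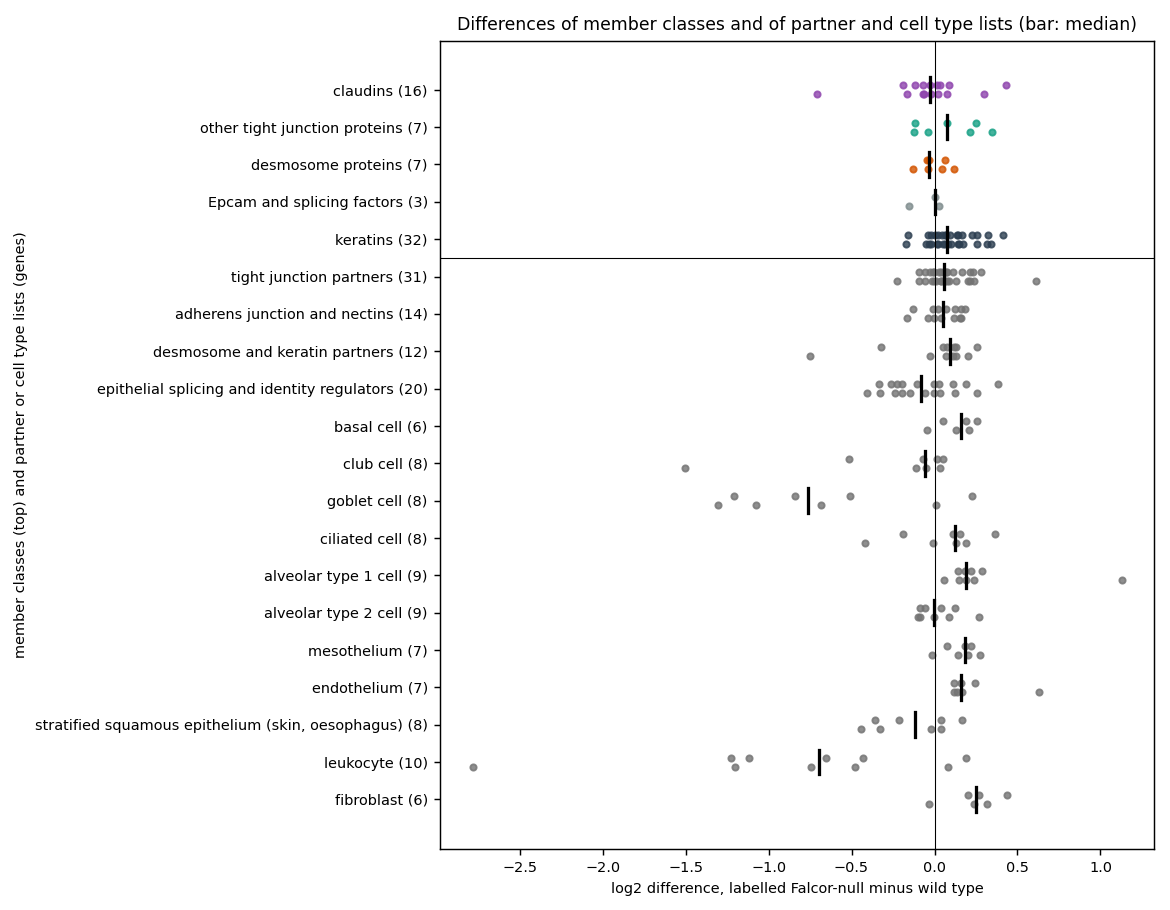
Log2 difference, arrays labelled Falcor-null minus wild type, of every gene (points) in the 5 member classes (coloured, above the line) and in the partner and cell type lists (grey, below it), with the median as a bar and the number of genes in brackets. The member classes have medians between -0.03 and 0.08, while the goblet cell and leukocyte lists have medians of -0.76 and -0.70.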

How the data were processed

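RNA of 6 whole lungs was hybridised to single-channel arrays. The authors deposited 1 log2 signal for each probe set and array. Per the submitters' processing notes the tools were oligo, RMA and limma, with no versions. RMA includes a quantile step, which removes a shift shared by most genes. The build and any probe set filter are not given in the sources used here.

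The table held 24173 probe sets, of which 17476 had 1 gene symbol in the platform annotation, 1308 several and 5389 none there. A gene was represented by its probe set of highest average signal, leaving 16537 genes. Groups and replicate numbers came from the sample titles. Group means were compared in limma 3.58.1 (R 4.3.3, lmFit and eBayes, no covariates), fitted across all genes, two-sided, with Benjamini-Hochberg adjustment. Intervals are unadjusted 95% intervals of that fit. Same-numbered arrays had deviations from their group means that correlated at 0.0217, -0.00255 and -0.0814, so the numbers were not taken as pairs.

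Any member could be named, in each class those with the largest absolute difference and the brightest. Values per array were given for the 12 members with the smallest p and the brightest of each class, and, beyond that rule, for some typical of epithelium. From each list, genes that passed and up to 3 with the smallest p were named, plus Cdh5 as the defining endothelial gene. Some others were named beyond that rule, such as genes with the opposite sign to most of their list. The members and lists were chosen with earlier results of these data known. The lists of partners and cell types are described by counts and medians. Cdh1 and Trp63 stand in more than 1 list. Promoter windows are RefSeq's, GRCm38.p6. Scripts were tested on simulated data. Alternatives were the replicate number as a block, other scalings, variance settings, array weights, filters on dim probe sets, other choices of probe set and leaving out each array. Figures were drawn with matplotlib 3.10.9.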

Additional observations from a re-analysis of the deposited data

How the results depend on the processing

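The count of 0 members passing held with the replicate block, both other scalings, the variance settings, array weights, both filters on dim probe sets, both other choices of probe set and each array left out. At an adjusted p under 0.1, 1 member passed, Cldn1, and 280 genes in all. With the replicate block 32 genes passed in place of 92. The same-numbered arrays share only a number. With an array left out, 18 to 89 genes passed: 24, 18 and 37 without Falcor-null replicates 1, 2 and 3, and 89, 26 and 49 without wild-type replicates 1, 2 and 3. The cause was not tested. Over the alternatives the adjusted p of Cldn1 ran from 0.0611 to 0.243 and that of Cldn5 from 0.0540 to 0.250, each with the direction kept.

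Of 402 values of named members under the other alternatives 9 changed sign. Centring gave 0.00942 for Cldn8, 0.00721 for Dsp and 0.00162 for F11r, the second quantile normalization gave 0.00207 for Dsp, and array weights gave 0.00338 for Cldn8 and -1.62e-05 for Epcam. The dimmer probe set gave -0.058 for Cldn19 and -0.226 for Krt18, and averaging gave -0.0435 for Krt18. With an array left out, 25 of 258 values changed sign. The ranges were -0.0216 to 0.0641 for Cldn10, -0.0193 to 0.225 for Cldn11, -0.14 to 0.0532 for Cldn23, -0.14 to 0.0344 for Cldn4, -0.211 to 0.277 for Cldn8, -0.00978 to 0.201 for Dsg2, -0.124 to 0.0183 for Dsp, -0.0117 to 0.0245 for Epcam, -0.0471 to 0.139 for Esrp2, -0.0771 to 0.211 for Krt19, -0.23 to 0.155 for Krt23, -0.338 to 0.0945 for Krt79, -0.0856 to 0.0131 for Pkp2 and -0.0393 to 0.145 for Pkp3. Of the lists, left-out arrays were tried after seeing the data. The median of the club cell list turned to 0.00 without Falcor-null replicate 3, that of the type 2 cell list to 0.00 without wild-type replicate 3, and that of the mesothelial list was 0.06 without Falcor-null replicate 1. The number of arrays limits what could be seen, and signal over background is not known for single probe sets.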
